A study of Mus musculus with 12 samples.

Results

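The transcripts described here are those of 9 genes of developing red blood cells, Car1, Car2, Klf1, Epor, Tfrc, Ermap, Alas2, Rhag and Slc4a1, as measured on arrays of sorted bone marrow plasma cells. The genes were taken by symbol from the probe annotation. Only probe sets that name 1 gene were used, and where a gene had several, the one with the highest average over the 12 arrays stood for it. All 9 were found, among 19938 genes with such a probe set. All 9 also lay above the filter on low values (a mean over 5.49 on the log2 scale), as did 14993 genes in all. Each has 1 single-gene probe set, so no second probe set of the same gene was at hand. They are ordered by stage of red cell development, with 5 genes called early (Car1, Car2, Klf1, Epor and Tfrc) and 4 called late (Ermap, Alas2, Rhag and Slc4a1). The division follows textbook knowledge and is not sharp.

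Zbtb32-/- cells (6 arrays) were compared with wild-type cells (Zbtb32 +/+, 6 arrays). All donors carried CD45.2 and were immune to NP-CGG, a protein carrier coupled to the hapten NP, and their splenocytes went into CD45.1 recipients that were then given NP-CGG. Plasma cells were sorted from the recipients' marrow 7 days later as cells positive for CD138, CD45.2 and NP binding and negative for CD45.1, CD11b, Ly6g and B220. By Ly6g and CD11b this gate is meant to exclude neutrophils and many myeloid cells, and it holds no surface marker specific to the red cell lineage. The ages of the mice, the deleted part of Zbtb32 and any treatment of the recipients are not given in the sources used here. The series text calls the 6 arrays of a genotype biological replicates. In RNA from a sorted population, fewer cells of a type and less RNA per cell cannot be told apart, and neither can RNA of donor and recipient red cell precursors.

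Red cell precursors arise in the marrow from progenitors that depend on erythropoietin, which acts through the receptor encoded by Epor. The transcription factors GATA1 and KLF1 switch on the genes of iron uptake, heme synthesis, globins and the red cell membrane. Plasma cells, in contrast, devote their RNA to immunoglobulins, and transcripts of late red cell genes are not part of their known program. Tfrc, the transferrin receptor, is not specific to red cells, because dividing cells of any lineage use it to take up iron.

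The DNA just before the start of these genes is shown to compare where a GATA motif lies. Of the 9 genes, 6 had an entry in a RefSeq promoter table of build GRCm38.p6, with 7 entries in all because Tfrc has several starts. The motif was searched as AGATAA, or with G as its last letter as AGATAG, and likewise with T as its first letter as TGATAA or, with G last, as TGATAG. Both strands of the 250 bases before each start were searched. The last 100 bases before the start are printed 5′ to 3′ on the strand of the gene, and capitals mark the GATA match. The second Tfrc entry was searched but is not printed.
Klf1, chr8:84901882-84901981, plus strand: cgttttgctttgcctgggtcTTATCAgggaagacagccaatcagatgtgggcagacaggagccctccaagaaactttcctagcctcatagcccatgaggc
Epor, chr9:21963577-21963676, minus strand: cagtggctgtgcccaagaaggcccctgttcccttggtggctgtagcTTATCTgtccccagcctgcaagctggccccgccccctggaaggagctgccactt
Ermap, chr4:119189996-119190095, minus strand: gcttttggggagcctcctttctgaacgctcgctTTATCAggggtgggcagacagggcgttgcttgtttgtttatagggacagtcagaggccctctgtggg
Alas2, chrX:150547317-150547416, plus strand: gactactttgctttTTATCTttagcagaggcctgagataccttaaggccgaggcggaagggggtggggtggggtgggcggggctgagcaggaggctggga
Rhag, chr17:40811049-40811148, plus strand: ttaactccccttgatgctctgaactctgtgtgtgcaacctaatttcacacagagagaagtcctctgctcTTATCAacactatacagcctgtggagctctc
Tfrc, chr16:32608796-32608895, plus strand: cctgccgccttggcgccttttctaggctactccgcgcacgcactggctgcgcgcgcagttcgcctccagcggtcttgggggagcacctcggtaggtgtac

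Klf1, Epor, Ermap, Alas2 and Rhag each held 1 GATA match in the 250 bases, and each match lay on the opposite strand, within the last 100 bases. It began 80 bases before the start in Klf1, 54 in Epor, 67 in Ermap, 86 in Alas2 and 31 in Rhag. Neither Tfrc entry held one. Over all 32851 windows of the table, 26.5% held the motif in 250 bases and 10.4% in the last 100. The CACCC-type motif bound by factors of the KLF family, searched as CCNCNCCC on both strands, was found in 3 of the 6 genes, Epor, Tfrc and Alas2, with several matches that overlap one another. It was present in 45.9% of all windows. A match describes the letters and shows no binding in these cells.

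Facts of the whole series bear on the reading of these values. The plasma cell genes Sdc1 (CD138), Prdm1 and Xbp1 lay at 10.70 to 11.25, 8.79 to 10.09 and 12.89 to 13.43 in Zbtb32-/- arrays and at 10.32 to 11.34, 8.51 to 9.99 and 12.68 to 13.24 in wild-type arrays (log2 RMA values throughout), high in every array. Zbtb32 itself lay at 6.47 to 6.73 in Zbtb32-/- and at 6.39 to 6.88 in wild-type arrays, and since the deleted part is not known this probe set cannot check the labels. The neutrophil transcript S100a8 was also high in every array, at 11.23 to 13.47 in Zbtb32-/- and at 10.77 to 13.16 in wild-type arrays. Other neutrophil genes were low in some arrays. Mpo and Elane lay at 5.90 and 6.24 in Zbtb32-/- replicate 3, and Ly6g and Elane at 5.89 and 5.97 in wild-type replicate 2. The arrays differed by replicate number, replicates 4 to 6 against replicates 1 to 3, a division that earlier work on these data chose after seeing them and that the labels do not name as a batch. Both sets contain 3 Zbtb32-/- and 3 wild-type arrays. The mean correlation of an array with the remaining arrays was lowest for wild-type replicate 2 (0.933), followed by wild-type replicate 6 (0.938).

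The early genes did not separate the genotypes. Car1 encodes a carbonic anhydrase abundant in early red cell precursors. It had a lowest, median and highest value of 9.14, 9.56 and 10.38 in Zbtb32-/- arrays, against 6.25, 9.01 and 10.36 in wild-type arrays. The Zbtb32-/- arrays thus sat together near the top of the wild-type range, while wild-type replicates 2 (6.25), 5 (7.59) and 1 (8.49) lay below all of them. Car2, a related carbonic anhydrase that works in maturing red cells, had 6.59, 6.89 and 7.50 in Zbtb32-/- arrays, against 5.62, 6.67 and 7.999 in wild-type arrays. Its lowest and highest arrays were both wild type, replicates 2 and 3, and the genotypes overlapped. Klf1, the red cell transcription factor, had 6.05, 6.33 and 6.85 in Zbtb32-/- arrays, against 5.97, 6.24 and 6.80 in wild-type arrays. In each genotype replicate 3 was the highest for Klf1. Epor, the erythropoietin receptor, had 6.80, 7.09 and 7.33 in Zbtb32-/- arrays, against 6.78, 6.85 and 7.56 in wild-type arrays, with wild-type replicate 3 above all others. Tfrc had 6.42, 6.74 and 7.27 in Zbtb32-/- arrays, against 5.68, 6.74 and 7.64 in wild-type arrays, so that the medians were alike and wild-type replicates 2 and 3 were again the extremes.

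The late genes overlapped between the genotypes as well. Ermap, a membrane protein of red cells that carries the Scianna blood group in humans, had 7.52, 7.81 and 8.31 in Zbtb32-/- arrays, against 6.94, 7.38 and 8.18 in wild-type arrays. All Zbtb32-/- arrays lay above the 4 lowest wild-type arrays, and wild-type replicates 3 and 4 fell within their range. Alas2, the enzyme of the first step of heme synthesis in red cells, had 6.32, 7.00 and 7.50 in Zbtb32-/- arrays, against 6.04, 6.38 and 8.02 in wild-type arrays. Rhag, a partner of the Rh proteins in the red cell membrane, had 4.83, 6.10 and 8.03 in Zbtb32-/- arrays, against 4.84, 5.66 and 7.48 in wild-type arrays. Replicate 3 of each genotype stood above the other 5 arrays of its group for both Alas2 and Rhag. Slc4a1, the anion exchanger band 3, had 6.78, 8.67 and 9.33 in Zbtb32-/- arrays, against 6.70, 7.90 and 9.69 in wild-type arrays, and covered nearly the same range in both.

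**Figure D1:**
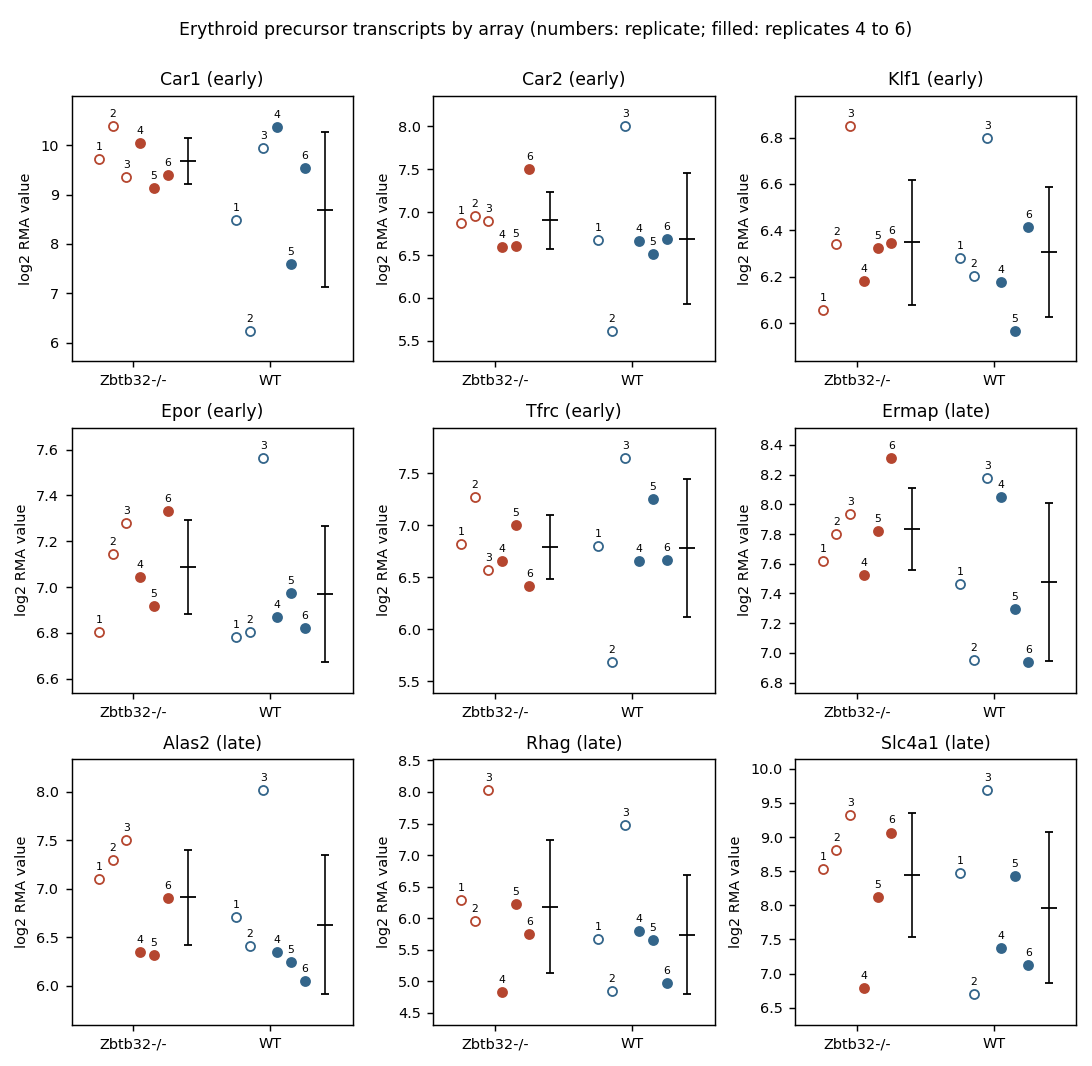
Log2 RMA value of each of the 9 genes (y axis, log2 scale that does not start at 0) in the 6 Zbtb32-/- arrays (left) and the 6 wild-type arrays (right). Numbers are replicate numbers, filled points are replicates 4 to 6, and the bars are the mean ± SD (n = 6). Values of the genotypes overlap for every gene, and wild-type replicates 2 and 3 often lie at the ends.

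No gene of the 9 differed between the genotypes in limma's test over all 14993 genes. That test called 0 genes (0%), with a smallest adjusted p of 0.933, and 642 genes (4.28%) had an unadjusted p under 0.05. None of the 9 had an unadjusted p under 0.05. Car1 averaged 9.67 ± 0.47 in Zbtb32-/- arrays and 8.69 ± 1.57 in wild-type arrays (SD, n = 6 each). Subtracting the wild-type mean gave a difference of 0.98 (95% interval -0.26 to 2.21, limma adjusted p = 0.933). The difference was 0.49 without wild-type replicate 2, and the two-sided exact permutation p over the 924 assignments was 0.188. Ermap averaged 7.83 ± 0.28 in Zbtb32-/- arrays and 7.48 ± 0.53 in wild-type arrays (SD, n = 6 each), a difference of 0.36 (95% interval -0.13 to 0.84). Slc4a1 differed by 0.48 (-0.61 to 1.57), Rhag by 0.45 (-0.61 to 1.505) and Alas2 by 0.28 (-0.38 to 0.95). Car2 differed by 0.21 (-0.43 to 0.85), Epor by 0.12 (-0.20 to 0.43), Klf1 by 0.04 (-0.28 to 0.36) and Tfrc by 0.004 (-0.56 to 0.57). Single arrays moved several of these values in either direction. The difference of Rhag was 0.077 without Zbtb32-/- replicate 3, and that of Slc4a1 was 0.22 without wild-type replicate 2. Without wild-type replicate 3 the differences were 0.79 for Rhag, 0.82 for Slc4a1, 0.56 for Alas2 and 0.24 for Epor. All 9 differences were positive, where 52.9% of the tested genes had a positive difference and the median of all genes was 0.01. Some lists of other cells and functions were positive throughout as well, with 10 of 10 neutrophil genes (median 0.38) and 13 of 13 genes of mitosis (median 0.26, 5 of them at an unadjusted p under 0.05). Others were not, with 5 of 8 plasma cell genes positive (median 0.06) and 1 of 9 monocyte and macrophage genes (median -0.16). For T and NK cell genes it was 1 of 6 (median -0.22) and for basophil genes 0 of 3 (median -0.37). The median was 0.12 for the early genes and 0.40 for the late ones. Since the 9 genes vary together between arrays, their common sign is not 9 separate observations. The values of the genotypes separated without overlap for 0 of the 9 genes and for 0.153% of all tested genes.

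**Figure D2:**
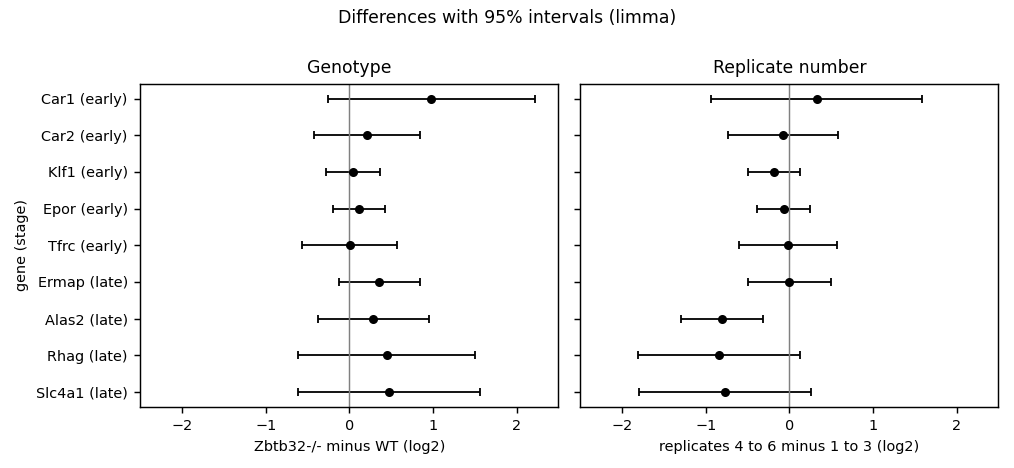
Differences of the 9 genes (points) with 95% intervals (bars) from limma, on the log2 scale, for Zbtb32-/- minus wild type (left) and for replicates 4 to 6 minus replicates 1 to 3 (right). All genotype intervals span 0, and in the right panel only the interval of Alas2 (-1.29 to -0.32) does not.

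Between single arrays several of the genes spanned a wide range. From its lowest to its highest array Car1 spanned 4.13 log2 units, or 17.5-fold, Slc4a1 2.99 (7.95-fold) and Car2 2.38 (5.20-fold). Rhag spanned 3.20 log2 units, but its 3 lowest arrays (4.83, 4.84 and 4.98) lay below the level of the filter on low values, so no fold is given. Alas2 and Tfrc each spanned near 4-fold (3.93 and 3.90), Ermap 2.59-fold, Klf1 1.84-fold and Epor 1.72-fold. RMA compresses the differences of probe sets with low signal, so these spans are not comparable as changes in RNA. The SD of Car1 over the 12 arrays exceeded that of 99.7% of the tested genes, that of Slc4a1 99.1%, of Rhag 99.0%, of Alas2 95.1%, of Klf1 53.1% and of Epor 50.02%. The SD was larger in wild-type than in Zbtb32-/- arrays for 8 of the 9 genes, Rhag being the exception, and for 69.9% of all tested genes.

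Wild-type replicates 2 and 3 were the lowest and the highest array for Car2, Tfrc and Slc4a1, and 1 of them was at an end of the range for Car1, Epor and Alas2, but neither was for Klf1, Ermap and Rhag. Wild-type replicate 2 was the lowest array for 4 genes, Car1, Car2, Tfrc and Slc4a1, and lay below the mean of the 12 arrays for all 9. Wild-type replicate 3 was the highest for 5 genes, Car2, Epor, Tfrc, Alas2 and Slc4a1, and lay above the mean for all 9. Their average deviations over the 9 genes were -1.03 and 0.95. Zbtb32-/- replicate 3 was the highest for Klf1 and Rhag, and its late genes were on average 1.05 above their means while its early genes were 0.16 above. Zbtb32-/- replicate 4 and wild-type replicate 6 had late genes on average 0.77 and 0.88 below their means (-0.77 and -0.88) and early genes close to theirs (0.08 and 0.002). In Zbtb32-/- replicate 4, Car1 was at 10.04 against its mean of 9.18 and raised the early average, while the late gene Ermap, at 7.52 against its mean of 7.66, lay closer to its mean than the other late genes. In wild-type replicate 4 Car1 was at 10.36, close to its highest value, while Slc4a1 was at 7.37 and Alas2 at 6.34. The other early genes also lay below their means in that array, and the late gene Ermap, at 8.05, lay above its own.

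**Figure D3:**
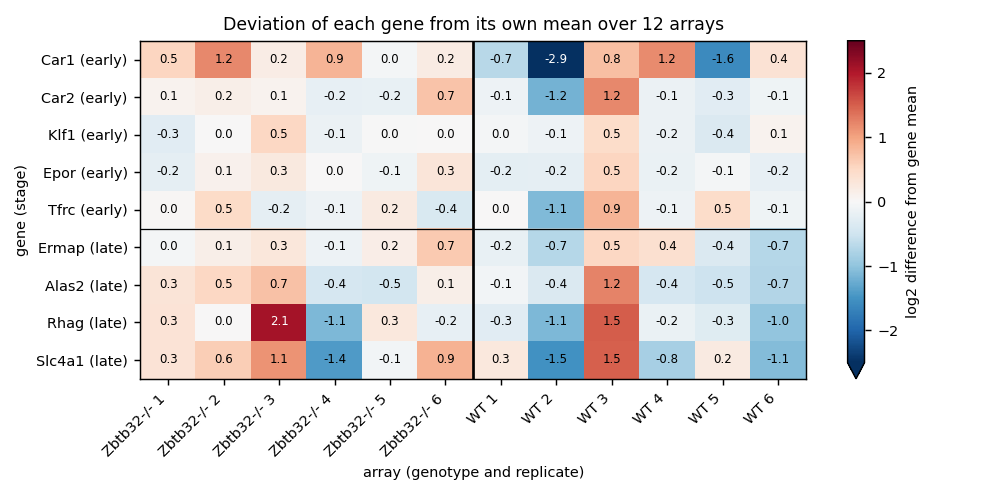
Deviation of each gene (rows, early above late) from its own mean over the 12 arrays, in log2 units by colour and printed number, for the Zbtb32-/- arrays (left) and the wild-type arrays (right). Wild-type replicate 2 is below the mean and wild-type replicate 3 above it in all 9 rows, and in Zbtb32-/- replicate 4 and wild-type replicate 6 the rows of Alas2, Rhag and Slc4a1 are the lowest.

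Between the replicate sets, 3 late genes had the largest differences of the 9, although none passed the adjusted threshold. Because the sets were chosen after these data were seen, the tests describe these arrays only. The limma fit with genotype as a further term called 977 of 14993 genes (6.52%), 307 higher (2.05%) and 670 lower (4.47%) in replicates 4 to 6, and 0 of the 9 genes were among them. Alas2 had 6.35, 6.32 and 6.91 in Zbtb32-/- replicates 4 to 6, against 7.10, 7.30 and 7.50 in Zbtb32-/- replicates 1 to 3. It had 6.34, 6.24 and 6.04 in wild-type replicates 4 to 6, against 6.71, 6.41 and 8.02 in wild-type replicates 1 to 3. Within each genotype every array of replicates 4 to 6 thus lay below every array of replicates 1 to 3 for Alas2, as for 4.90% of all tested genes. Its difference, replicates 4 to 6 minus 1 to 3, was -0.80 (95% interval -1.29 to -0.32, limma adjusted p = 0.0515). The adjusted p lay below 0.05 in 6 of 23 alternatives, the lowest (0.0326) without wild-type replicate 2, and at or above it in 17, the highest (0.101) without Zbtb32-/- replicate 3. Rhag averaged 5.54 ± 0.53 in replicates 4 to 6 and 6.38 ± 1.18 in replicates 1 to 3 (SD, n = 6 each), a difference of -0.84 (limma adjusted p = 0.259). Slc4a1 averaged 7.82 ± 0.87 in replicates 4 to 6 and 8.59 ± 1.04 in replicates 1 to 3 (SD, n = 6 each), a difference of -0.77 (limma adjusted p = 0.327). Without wild-type replicate 3 the Alas2 difference was -0.58 and that of Slc4a1 -0.47, and without Zbtb32-/- replicate 3 that of Rhag was -0.52. Without wild-type replicate 2 the differences were larger in size, -0.94 for Alas2, -1.13 for Rhag and -1.14 for Slc4a1.

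The fourth late gene and the early genes lay close to 0. Ermap differed by -0.001, Tfrc by -0.02, Epor by -0.07, Car2 by -0.08 and Klf1 by -0.19. Car1 had the only positive value, 0.32, which turned to -0.18 without wild-type replicate 2. The median over the early genes was -0.07, over the late genes -0.79 and over all tested genes -0.06. Whether early and late genes differ in this respect was not tested. The values of the sets separated without overlap for 0 of the 9 genes and for 3.90% of all tested genes.

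The genotype difference was also read within each set. In replicates 4 to 6, Car1 differed by 0.36 between Zbtb32-/- and wild type, Alas2 by 0.31, Slc4a1 by 0.35, Rhag by 0.13 and Ermap by 0.46. In replicates 1 to 3 the same genes differed by 1.59, 0.25, 0.60, 0.76 and 0.25. The early genes Car2, Klf1, Epor and Tfrc differed by 0.28, 0.10, 0.21 and -0.17 in replicates 4 to 6 and by 0.14, -0.01, 0.03 and 0.18 in replicates 1 to 3. The limma interaction of genotype and set called 0 of 14993 genes (0%), with 579 (3.86%) at an unadjusted p under 0.05 and none of the 9 among those. For Car1, which had the largest gap between the sets, the interaction was -1.23 (95% interval -3.76 to 1.30, limma adjusted p = 0.998), and -0.24 without wild-type replicate 2.

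The transcripts varied together from array to array. Of the 36 pairs of the 9 genes, all 36 had a positive Pearson r over the 12 arrays, with a median of 0.62, and 14 had an adjusted permutation p under 0.05 (two-sided, 100000 resamples, adjusted over the 36 pairs). Among all pairs of the 14993 tested genes, 51.5% had a positive r and the median was 0.02. The lowest r that passed, 0.67, was reached by 38.9% of the member pairs and by 3.48% of all pairs. By Spearman's rho 3 pairs passed. The 6 pairs of late genes had r from 0.61 to 0.82, and the 10 pairs of early genes from 0.19 to 0.79. The highest r was that of a late pair, Rhag and Slc4a1, while the highest rho was that of the early gene Car2 with Slc4a1. Rhag and Slc4a1 had r = 0.82 and rho = 0.80 (adjusted permutation p = 0.0121 and 0.0493), and r = 0.78 without the 2 arrays farthest from the median of Rhag. Alas2 and Slc4a1 had r = 0.82 and rho = 0.78 (adjusted permutation p = 0.0121 and 0.0493). Without the 2 arrays farthest from the median of Alas2 this pair had r = 0.69. Car2, though called early, had r = 0.77 and rho = 0.85 with Slc4a1 (adjusted permutation p = 0.0121 and 0.0302), and 0.58 without wild-type replicates 2 and 3.

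None of the 15 pairs that hold Car1 or Tfrc passed. The r of Car1 ran from 0.28 with Slc4a1 to 0.65 with Car2 (adjusted permutation p = 0.0653 for Car2), and that of Tfrc from 0.19 with Klf1 to 0.65 with Car2 (adjusted permutation p = 0.0632 for Car2). The late pair Ermap and Alas2, at 0.61, did not pass either (adjusted permutation p = 0.0653). The remaining 21 pairs had a median r of 0.70, and the 14 that passed were all among them. For each pair, the 2 arrays farthest from the median of the gene listed first were also left out. Over the 10 arrays left 0 pairs passed, and 27 stayed positive. The r of Car2 and Epor was 0.67 without them, against 0.79 over all arrays. For Klf1 and Rhag it was -0.12, against 0.73, and for Klf1 and Alas2 0.048, against 0.68, so that these correlations rest on replicate 3 of both genotypes. That of Car2 and Tfrc was -0.45, against 0.65. Within replicates 4 to 6 the median r over the 36 pairs was 0.16 with 25 positive and 0 passing, and within replicates 1 to 3 it was 0.84 with all positive and 6 passing. The late pairs were positive in both sets, with medians of 0.64 in replicates 4 to 6 and 0.89 in replicates 1 to 3. The pairs with Tfrc had medians of -0.48 in replicates 4 to 6 and 0.83 in replicates 1 to 3, and whether the sets differ was not tested.

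**Figure D4:**
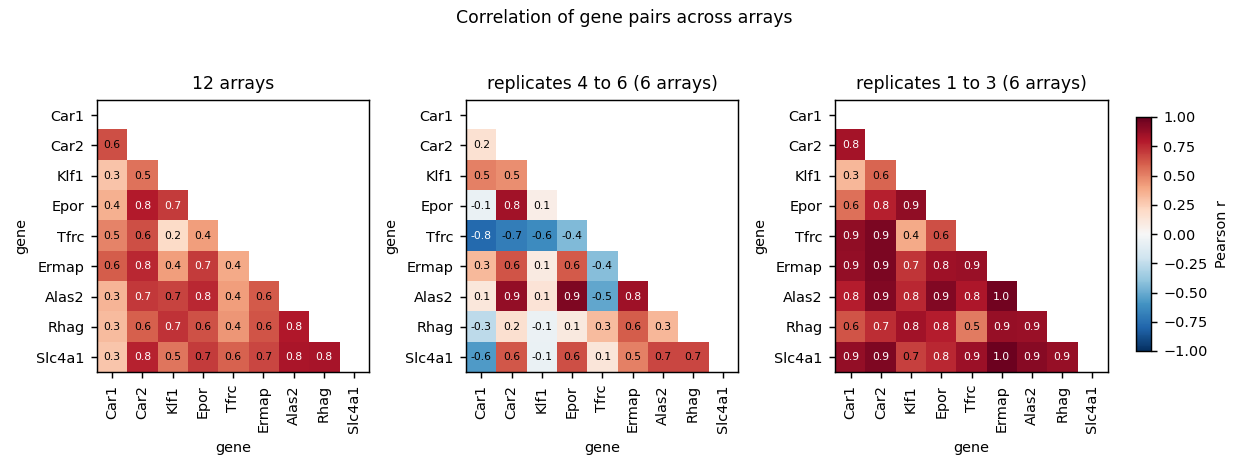
Pearson r of each pair of the 9 genes across all 12 arrays (left), across replicates 4 to 6 (middle, 6 arrays) and across replicates 1 to 3 (right, 6 arrays), by colour and printed number. The pairs of late genes at the bottom right are positive in all 3 panels, and the pairs with Tfrc are mostly negative in the middle panel.

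Hemoglobin transcripts, the main product of late red cell precursors, moved over a similar range. The adult globin genes have near-identical copies, and 4 probe sets list several of them and no other gene, so the values belong to no single gene. The first adult alpha globin probe set had a lowest, median and highest value of 11.27, 11.92 and 12.42 in Zbtb32-/- arrays, against 9.39, 10.67 and 12.59 in wild-type arrays. The first adult beta globin probe set had 12.57, 13.22 and 13.56 in Zbtb32-/- arrays, against 10.56, 12.20 and 13.75 in wild-type arrays. The second probe set of each kind gave nearly the same values. Wild-type replicates 2, 6 and 4 were the lowest for both kinds, and wild-type replicate 3 the highest. The span from lowest to highest array was 8.11-fold to 9.23-fold over the 4 probe sets.

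The globin differences between Zbtb32-/- and wild type were 1.06, 1.06, 1.02 and 1.00. None passed in the limma fit over all 35556 probe sets (adjusted p = 0.945 for each, unadjusted p = 0.0579 to 0.0652), which called 7 probe sets (0.0197%). They were 0.70 to 0.79 without wild-type replicate 2, 0.31 to 0.45 without wild-type replicates 2 and 6 and 1.01 to 1.18 without wild-type replicates 2 and 3. Between replicates 4 to 6 and replicates 1 to 3 the differences were -0.93, -0.96, -0.78 and -0.74, with limma adjusted p from 0.203 to 0.312, in a fit that called 9.52% of the probe sets. The 3 Zbtb32-/- arrays of replicates 4 to 6 had alpha globin values of 11.33, 11.27 and 11.54, against 12.34, 12.30 and 12.42 in the 3 of replicates 1 to 3. The wild-type values were 10.04, 11.30 and 9.75 in replicates 4 to 6, against 11.74, 9.39 and 12.59 in replicates 1 to 3. The sets were apart in Zbtb32-/- arrays, as for 20.7% of the tested genes, and overlapped in wild-type arrays, whose lowest value was in replicates 1 to 3. Over the 12 arrays the first beta globin probe set had r = 0.84 with Slc4a1, 0.76 with Alas2, 0.71 with Rhag and 0.68 with Ermap. Of the early genes, it had 0.69 with Car2, 0.65 with Tfrc, 0.58 with Epor, 0.48 with Car1 and 0.33 with Klf1. These r values describe 12 arrays that also differ by replicate set. The embryonic globin gene Hba-x, for which a single-gene probe set exists, lay between 5.94 and 6.27 in Zbtb32-/- and between 5.89 and 6.22 in wild-type arrays.

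**Figure D5:**
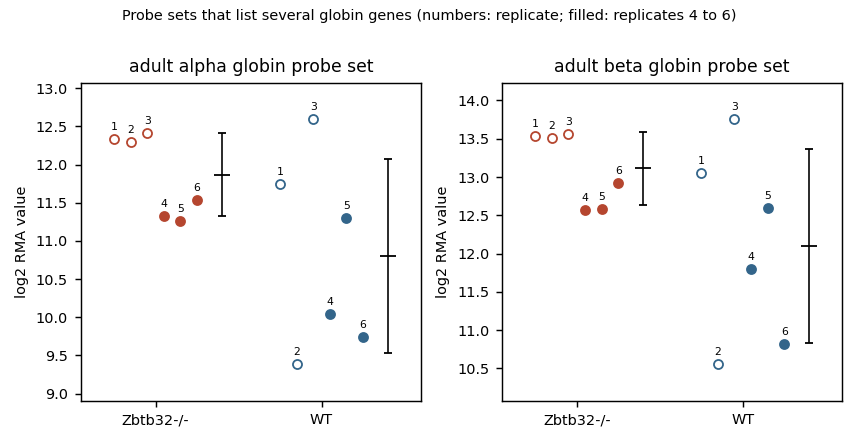
Log2 RMA value (y axis, not starting at 0) of 1 adult alpha globin and 1 adult beta globin probe set that list several globin genes, in Zbtb32-/- arrays (left) and wild-type arrays (right). Numbers are replicates, filled points replicates 4 to 6, bars the mean ± SD (n = 6). Wild-type replicates 2, 6 and 4 lie lowest and wild-type replicate 3 highest.

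Further genes of the red cell program were read between the genotypes, and 0 members were called in any list. In the list of red cell transcription factors 4 of 10 tested genes had a positive difference, with a median of -0.08. Hemgn, a nuclear protein of blood cell precursors, differed by 0.27 and Gfi1b, a repressor of red cell and platelet precursors, by -0.20. In the heme and iron list 11 of 12 tested genes were positive, with a median of 0.17. Uros, a heme synthesis enzyme, differed by 0.28 and Slc25a38, the mitochondrial glycine carrier of heme synthesis, by 0.37. In the list of red cell membrane and skeleton 10 of 15 tested genes were positive, with a median of 0.23. Cldn13, a claudin, had the smallest unadjusted p (0.0643), at 7.90 ± 0.33 in Zbtb32-/- arrays and 7.23 ± 0.87 in wild-type arrays (SD, n = 6 each, limma adjusted p = 0.933). The blood group protein Icam4 differed by 0.40. Against these, 52.9% of all tested genes were positive with a median of 0.01.

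Between the replicate sets, 4 genes of heme synthesis and iron were lower in replicates 4 to 6, the direction of the Alas2 value, which did not pass. In the heme and iron list 4 of 12 tested genes were lower in replicates 4 to 6, against 4.47% of all genes, and 0 were higher. Uros averaged 6.85 ± 0.21 in replicates 4 to 6 and 7.29 ± 0.19 in replicates 1 to 3 (SD, n = 6 each), a difference of -0.44 (limma adjusted p = 0.0253). Alad, an enzyme of the next step after Alas2, averaged 8.84 ± 0.41 in replicates 4 to 6 and 9.50 ± 0.24 in replicates 1 to 3 (SD, n = 6 each), a difference of -0.66 (limma adjusted p = 0.0417). The other 2 were Ppox and Slc25a38, named because the count is small, with -0.42 and -0.56. All cells make heme, and these enzymes are not specific to red cells. The count of 4 depended on single arrays. It was 0 without Zbtb32-/- replicate 1 or 3 or wild-type replicate 1 or 5. It was 1 without Zbtb32-/- replicate 2 or wild-type replicate 3, 4 or 6, and also after renewed quantile normalization. It was 2 without Zbtb32-/- replicate 6 or without both wild-type replicates 2 and 6, and 0 without both wild-type replicates 2 and 3. Without Zbtb32-/- replicate 4 or 5 or wild-type replicate 2 it was 3. The calls over all genes in either direction, 977 with all arrays, moved as well. They were 240 to 1193 without single arrays and 39 without both wild-type replicates 2 and 3. In replicates 4 to 6, 2 of 8 plasma cell genes were also lower and 0 of 13 genes of mitosis passed, and the part of these in the result was not tested.

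In the list of red cell membrane and skeleton, 2 of 15 genes had a positive difference between the sets, against 38.8% of all tested genes, and 0 passed. Rhd, the Rh protein that pairs with Rhag, averaged 6.78 ± 0.42 in replicates 4 to 6 and 7.63 ± 0.57 in replicates 1 to 3 (SD, n = 6 each), a difference of -0.85 (limma adjusted p = 0.0567). Icam4 differed by -0.58 (limma adjusted p = 0.0871). Of the transcription factors 5 of 10 were positive and 0 passed, with Cited4 at -0.29 (limma adjusted p = 0.0625). Nfe2, which platelet precursors and granulocytes also use, differed by 1.08 (limma adjusted p = 0.119), with its highest value, 9.53, in Zbtb32-/- replicate 6.

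The genes most like 3 of the members over the 12 arrays were listed as a description, from 14984 other tested genes. Predicted genes, clones, immunoglobulin and T cell receptor genes, olfactory and vomeronasal receptors and small RNAs were passed over in naming the closest. The closest to Alas2 were Cxcr4 (r = 0.93, rho = 0.89), Rhd (0.93, 0.85), Trp53bp2 (0.92, 0.85), Ccndbp1 (0.90, 0.80) and Paxx (0.90, 0.96). The chemokine receptor Cxcr4 lay between 11.39 and 12.30, and Rhd is itself a red cell gene. The closest to Car1 were Fkbp3 (r = 0.94, rho = 0.89), Svbp (0.91, 0.77), Tmem256 (0.91, 0.78), Depdc5 (0.91, 0.78) and Orc2 (0.90, 0.90), none of them in the lists of red cell genes. The closest to Tfrc were Dpcd (r = 0.88, rho = 0.76), Fdft1 (0.88, 0.72), Socs6 (0.87, 0.57), Ipo7 (0.86, 0.77) and Hint2 (0.86, 0.78). With so many genes and 12 arrays, high r values arise in number, and these arrays share the extremes of wild-type replicates 2 and 3.

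Markers of other marrow cells were read beside the red cell genes. The mean of the 10 neutrophil genes ran from 9.39 to 12.54 in Zbtb32-/- arrays and from 8.14 to 11.40 in wild-type arrays. It was 9.39, the lowest of the Zbtb32-/- arrays, in Zbtb32-/- replicate 3, where Rhag was highest, and 8.14 in wild-type replicate 2, where the red cell genes were low. In replicates 4 to 6, 4 of the 10 neutrophil genes were higher than in replicates 1 to 3 and 0 lower, against 2.05% of all tested genes higher. That direction is the opposite of the sign of Alas2, which did not pass. Of the tested monocyte and macrophage genes 2 of 9 were also higher, and of the basophil genes 1 of 3, with 0 lower in both lists. The mean of 9 measured monocyte and macrophage genes ran from 7.08 to 8.44 in Zbtb32-/- and from 6.76 to 8.95 in wild-type arrays. It was highest in wild-type replicate 5, in which Car1 was at 7.59. The mean of 5 measured platelet precursor genes ran from 6.12 to 7.40 in Zbtb32-/- and from 6.07 to 6.92 in wild-type arrays, highest in Zbtb32-/- replicate 6. The plasma cell list ran from 10.86 to 11.48 in Zbtb32-/- and from 10.75 to 11.52 in wild-type arrays, and was 11.46 and 11.38 in wild-type replicates 2 and 3. Basophil genes (6 measured) ran from 4.85 to 5.09 in Zbtb32-/- and from 4.93 to 6.28 in wild-type arrays, and T and NK cell genes (7 measured) from 5.71 to 6.27 in Zbtb32-/- and from 5.85 to 6.95 in wild-type arrays. The part of any of these cells in the results was not tested.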

How the data were processed

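Gene expression was measured on Affymetrix mouse arrays in 12 samples, 6 Zbtb32-/- and 6 wild type. RNA was extracted with a Nucleospin RNA XS kit and amplified with a WT Pico kit, per the labels' protocols. RMA was run by the authors, and the submitters' processing notes name Affymetrix Expression Console as the tool, so the deposited table gives each probe set on the log2 scale. Versions, and whether all arrays were normalized together, are not given in the sources used here. Raw intensities were not used here.

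Of 35556 probe sets, 21789 name 1 gene, 1621 several and 12146 none here, and names come from the platform annotation. Each gene was taken at the brightest on average of the probe sets that name it alone, and genes at or below the 25th percentile of single-gene probe sets were left out. Differences were tested over all genes with lmFit and eBayes (with a trend) of limma 3.58.1, run in R 4.3.3, with Benjamini-Hochberg adjustment and a threshold of 0.05. The script was tested on simulated data. Tables, permutation tests and plots used Python 3.11.15. The members, gene lists and tests were chosen with earlier results of these data known. Named beyond the members are, per list, the 2 genes with the smallest p in each comparison. For Car1, Alas2 and Tfrc they are the 5 genes with the highest r, leaving out the kinds of gene passed over above. The number of arrays limits the precision, and nothing in the labels ties arrays to single mice, so p-values measure the spread between these samples.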

Additional observations from a re-analysis of the deposited data

Results flagged for a closer look

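Among the 18 groups formed by 9 genes and 2 genotypes, 4 single arrays stood apart from the other 5 of their group by Dixon's criterion. Chance meets it in about 1 of 20 groups, and over all tested genes of these arrays it was met in 8.21% of such groups (9.72% in Zbtb32-/- and 6.69% in wild-type arrays). They were Klf1 in Zbtb32-/- replicate 3 (6.85), Epor in wild-type replicate 3 (7.56), Alas2 in wild-type replicate 3 (8.02) and Rhag in wild-type replicate 3 (7.48). In all 4 the array was the highest of its group, and 3 of them come from 1 array, so they are not separate observations. In wild-type replicate 3 the plasma cell list had a mean of 11.38 and the neutrophil list 10.70, both inside the range of the other wild-type arrays. The part of this array's RNA or of other cells in these values was not tested.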

How the results depend on the processing

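The genotype comparison called 0 genes in the alternatives run, except 7 with all probe sets of the table (added after the data were seen) and 1 within replicates 4 to 6, and none of the 9 genes was called in any. It also called 0 with the replicate block. After the mean of its genotype was subtracted from each gene, same-numbered arrays correlated at 0.02 to 0.47, over 0.1 in 4 of 6 pairs. On these values 2 of 6 Zbtb32-/- arrays correlated best with their own number, so the numbers were not taken as pairs. The replicate set comparison called 3384 with all probe sets, 1579 without a filter, 39 without both wild-type replicates 2 and 3 (added after the data were seen) and 240 to 1193 on leaving out single arrays. The interaction called 1 gene with array weights and 0 to 1 on leaving out single arrays. Of the member pairs, 0 passed within replicates 4 to 6 and 6 within replicates 1 to 3. Without the 2 arrays farthest from the median of the gene listed first, 0 passed.

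Of 250 genotype values of the 9 genes under alternatives, 232 kept their sign, and 18 values, of Car2, Klf1, Tfrc and Slc4a1, changed it. On leaving out single arrays Car2 ran from -0.0030 to 0.47, Klf1 from -0.057 to 0.14 and Tfrc from -0.22 to 0.18. Without wild-type replicates 2 and 6, Car2 was -0.057, Tfrc -0.30 and Slc4a1 -0.049. The other late genes kept their sign there but were close to 0, Ermap at 0.088, Alas2 at 0.084 and Rhag at 0.033. Without wild-type replicates 2 and 3 these late genes were at 0.40, 0.58 and 0.66. With array weights Klf1 was -0.0084 and Tfrc -0.012. Klf1 was -0.012 within replicates 1 to 3. Tfrc was -0.17 within replicates 4 to 6, -0.057 without wild-type replicates 2 and 3 and -0.026 with the neutrophil and monocyte covariate. Of 205 replicate set values, 22 changed sign. On leaving out single arrays Car1 ran from -0.18 to 0.64, Car2 from -0.32 to 0.21, Epor from -0.14 to 0.054, Tfrc from -0.27 to 0.17 and Ermap from -0.13 to 0.15. Car1 was -0.063 with array weights and -0.27 without wild-type replicates 2 and 6. Epor was 0.049 without wild-type replicates 2 and 3. Ermap was 0.056 after renewed quantile normalization, 0.0016 without wild-type replicates 2 and 6 and 0.056 without wild-type replicates 2 and 3. The causes were not tested. The replicate set call of Alas2 passed in 6 alternatives (adjusted p from 0.0326 to 0.0472).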
